A study of Homo sapiens and Mus musculus with 61 samples.

Results

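The haematopoietic GATA and TAL1 complex genes described here are GATA1, GATA2, TAL1, LYL1, LMO2, LDB1 and GFI1B. Their regions were taken from 17 tables of CAPTURE-ChIP-seq, an assay that pulls down chromatin bound by a biotinylated, catalytically inactive Cas9 (dCas9). A listed 300 bp region was a member when the nearest protein-coding transcription start, measured from the centre of the region, belonged to 1 of these 7 genes and lay within 10000 bp. This gave 54 entries, each a region in a table, of 143198 entries in all. They fall on 23 distinct coordinates at 17 loci, and each of the 7 genes has at least 1.

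All libraries came from K562, an established human leukaemia cell line with erythroid features that carried biotinylated dCas9. A total of 42 libraries had guides aimed at the beta-globin cluster on chromosome 11. These were sgHS1 to sgHS5, sgHBB, sgHBG, sgHBD-1kb and sg3'HS1, second guides marked sg2 for HS1 to HS5, HBB and HBG, and the pool sgHS1-5. sgHBB, sgHS2-sg2 and sgHS3-sg2 had 1 library, sgHS3 and sgHS5 had 3, sgHBG had 4, sgHS2 had 5, the pool had 6 and each other guide had 2. The 4 control libraries carried sgGal4, a guide with no intended human target. None of the guides was aimed at a member gene, so the comparison asks how much dCas9 pull-down signal these genes had with a globin guide relative to sgGal4. In 16 of 17 tables the highest ratio of the table lay in the globin cluster, and in the remaining table, sg3'HS1, a cluster region ranked 2.

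GATA1 and GATA2 are zinc finger proteins that bind GATA motifs. GATA1 drives erythroid and megakaryocytic differentiation, and GATA2 acts earlier, in stem and progenitor cells. TAL1 and LYL1 are related basic helix-loop-helix proteins that bind E-box motifs together with E proteins. LMO2 and LDB1 do not bind DNA themselves. LMO2 bridges GATA and TAL1 proteins, and LDB1 joins such complexes across chromatin, which in erythroid cells links the beta-globin locus control region to its genes. GFI1B is a zinc finger repressor of the same lineages that recruits LSD1.

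The reference sequences of the regions on which the results turn are given 5' to 3' on the plus strand of GRCh37, with coordinates as in hg19. Capitals mark matches, on either strand, to a GATA motif (AGATAA) or to an E-box motif (CAGNTG). The intronic LMO2 region had the highest ratio to sgGal4 of all members. The GATA1 and GATA2 regions each hold both motifs close together, and the GATA2 region is listed in all 17 tables. The LDB1 region passed the test with sgHS3.
LMO2, chr11:33906949-33907248: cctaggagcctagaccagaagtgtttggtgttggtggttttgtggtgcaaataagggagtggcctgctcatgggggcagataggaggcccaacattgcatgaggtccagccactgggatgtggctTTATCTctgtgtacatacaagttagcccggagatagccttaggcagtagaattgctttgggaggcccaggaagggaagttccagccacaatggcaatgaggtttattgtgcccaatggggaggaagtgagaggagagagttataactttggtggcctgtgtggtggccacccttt
GATA1, chrX:48641343-48641642: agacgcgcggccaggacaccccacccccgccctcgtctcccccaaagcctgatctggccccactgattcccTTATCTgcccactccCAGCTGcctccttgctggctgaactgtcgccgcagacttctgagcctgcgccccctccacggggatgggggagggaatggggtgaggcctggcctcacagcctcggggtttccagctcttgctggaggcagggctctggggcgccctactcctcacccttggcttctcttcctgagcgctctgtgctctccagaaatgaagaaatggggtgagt
GATA2, chr3:128202096-128202395: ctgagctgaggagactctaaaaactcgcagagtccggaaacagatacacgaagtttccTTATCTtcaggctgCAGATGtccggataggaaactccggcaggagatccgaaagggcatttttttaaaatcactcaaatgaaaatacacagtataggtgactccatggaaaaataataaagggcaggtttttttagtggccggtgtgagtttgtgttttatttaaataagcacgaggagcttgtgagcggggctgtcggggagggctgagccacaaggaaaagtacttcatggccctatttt
LDB1, chr10:103873645-103873944: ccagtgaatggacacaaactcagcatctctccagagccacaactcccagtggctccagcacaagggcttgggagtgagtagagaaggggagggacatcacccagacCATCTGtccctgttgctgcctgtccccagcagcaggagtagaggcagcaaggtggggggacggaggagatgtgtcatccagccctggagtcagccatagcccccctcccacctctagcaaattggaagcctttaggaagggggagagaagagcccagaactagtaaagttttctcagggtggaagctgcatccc
For regions that overlap transcript ends only the motif and its flanks are shown. The TAL1 window holds the GATA motif of the promoter region with sgHBG-sg2. The LYL1 windows hold the GATA motif of the region listed with sgHS4 and sg3'HS1 and the E-box of the region that passed the test with sgHBD-1kb.
TAL1, chr1:47698025-47698054: tgtgcgccgcagAGATAAggcactgccgcg
LYL1, chr19:13213653-13213682: ctggcccagtgcAGATAAgggccaggctgc
LYL1, chr19:13214172-13214201: gtccagcctgggCAGGTGtcccaagccctc

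Pull-down signal with a globin guide passed the test as raised at LMO2, LDB1, TAL1 and LYL1, at 1 region each in 1 table each. At GATA2 in 3 tables and at GFI1B in 1 it passed the test as lowered, and 3 of these 4 calls rest on a single guide library. A region was called raised or lowered with an adjusted p below 0.05 in limma, adjusted over all regions of its table, and a log2 ratio of guide to sgGal4 libraries of at least 1 or at most -1. The 4 raised entries are 7.41% of the 54, beside 1.66% of all entries raised. The 4 lowered entries are the same share, below the 11.2% of all entries lowered. Of the 54, 18 (33.3%) had an unadjusted p below 0.05, close to the 31.5% of all entries. The ratio is that of the mean linear levels. The authors' log2 levels rise by 0.596 to 1.38 per doubling of reads, depending on the library, so a ratio is not a ratio of reads. All tables share the same 4 sgGal4 libraries and are not independent.

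Read numbers were recovered from the levels. Within the regions of a table, guide libraries summed to 7127 to 432553 reads, sgGal4 replicates 1 and 2 to 41128 to 169968, and sgGal4 replicates 3 and 4 to 6499 to 18647. A region with 0 reads stood at a level of 1.96 to 3.68 in sgGal4 replicates 3 and 4, against -2.65 to 1.55 in replicates 1 and 2. Without replicates 3 and 4 together, 9 member entries were raised and 10 lowered, beside 24.4% and 14.3% of all entries. On recovered reads with a pseudocount of 1, 2 were raised (LMO2 and TAL1) and 0 lowered. There, all entries held 2694 raised and 3525 lowered, against 2384 raised and 16084 lowered on the deposited levels.

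How often a region was listed went with its ratio. The 21 member entries at coordinates listed in 1 table had a median log2 ratio of 1.05, against 0.6 for all 86545 entries of that kind. The 33 member entries at coordinates listed in 16 or 17 tables, all of them at 1 GATA2 and 1 GFI1B region, had a median of -0.79, against -1.69 for all 35101 such entries. All 4 raised member entries were listed in 1 table, where 2.73% of all entries were raised and 0.00693% lowered. All 4 lowered member entries were listed in 16 or 17 tables. They were 12.1% of the 33 member entries of that kind, against 39.1% lowered of all such entries. At regions listed in every table, 43.4% of all entries were lowered. Over all 54 the median was -0.22, against 0.08 for all entries. A ratio of at least 1 was seen in 11 entries, or 20.4%, against 17.3% of all. All 11 were listed in 1 table, 52.4% of the 21 member entries there, against 28.4% of all entries of that kind. How the authors chose the regions of a table is not given in the sources used here.

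**Figure D1:**
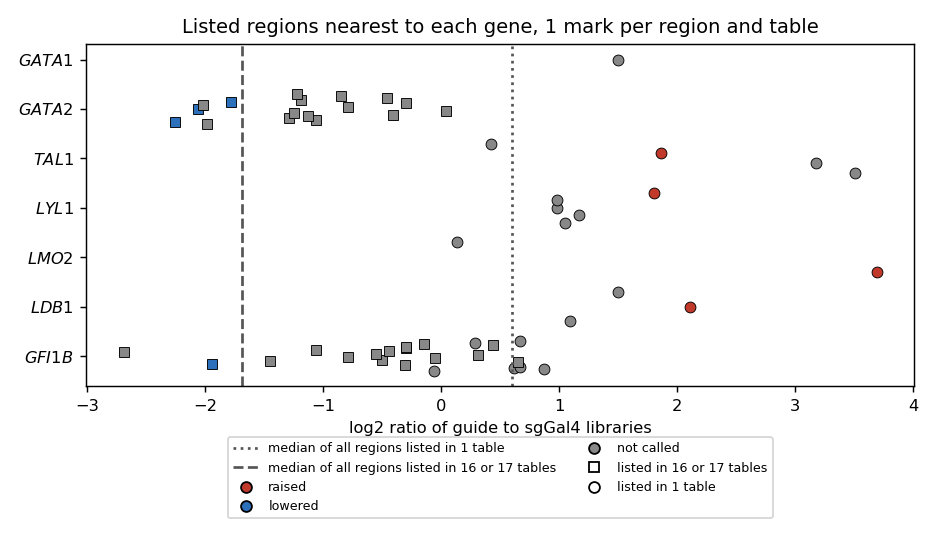
Log2 ratio of guide to sgGal4 libraries for the 54 member entries, by gene; colour gives the call, squares are regions listed in 16 or 17 tables and circles regions listed in 1, and vertical lines are medians of all entries of each kind (0.6 and -1.69). The 4 raised entries lie between 1.80 and 3.69, and all lowered ones are GATA2 or GFI1B regions listed in 16 or 17 tables.

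GATA1 had 1 listed region, 3456 bp upstream of its start and outside its transcripts, in the sgHS1-sg2 table. It held 10 and 9 reads in the sgHS1-sg2 libraries and 0 reads in each of the 4 sgGal4 libraries. Both guide levels, 3.46 and 4.23, lay above every sgGal4 level, which ran from -0.08 to 3.22. Every guide level lay above every sgGal4 level in 14.5% of all entries and in 23.6% of those listed in 1 table. The summed reads came to 1.02 per 10000 reads in listed regions with the guide. This was 6.4-fold the 0.16 that 3 reads over the 4 sgGal4 libraries would give. The fold takes the guide reads as exact, so it is not a lower limit. The region was listed only with this guide, and all entries listed in 1 table had a median log2 ratio of 0.6. Its log2 ratio of 1.50 (guide levels SD 0.54, n = 2) had a limma adjusted p of 0.194, so the region was not called. Without sgGal4 replicates 3 and 4, whose levels at 0 reads are the 2 highest of the sgGal4 libraries, the ratio was 3.42 with a limma adjusted p of 0.00307. Leaving out the highest sgGal4 levels can only raise this ratio, and 24.4% of all entries were raised in that setting.

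GATA2 had the same region in all 17 tables, in an intron 1459 bp upstream of the nearest start. It held 0 to 18 reads in the 42 guide libraries, with a median of 2, and 12, 15, 1 and 0 reads in sgGal4 replicates 1 to 4. The log2 ratio ran from -2.26 with sgHBB to 0.04 with the pool sgHS1-5, with a median of -1.19, and 11 of 17 ratios were at or below -1. That held for 25.3% of all entries and for 82.3% of those at regions listed in every table. Every guide level lay below every sgGal4 level in 7 of 17 tables, against 23.5% of all entries and 71.7% of those at regions listed in every table.

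The GATA2 call was lowered in 3 tables. With sgHBB the single guide library had 2 reads and a ratio of -2.26 (limma adjusted p = 0.0261), in a table where 37% of regions were lowered. With sgHS1-sg2 the libraries had 4 and 0 reads and the ratio was -2.06 (SD 0.88, n = 2; limma adjusted p = 0.0376), with 11.9% of the table lowered. With sgHS3-sg2 the single library had 3 reads and the ratio was -1.78 (limma adjusted p = 0.0311), with 31.1% of the table lowered. In the tables with 1 guide library, that library is taken to vary like the sgGal4 libraries. None of the 3 calls held on recovered reads with a pseudocount of 1, where limma adjusted p was 0.427 to 0.828, or without sgGal4 replicate 1 or 2, where it was 0.0508 to 0.0956. Without sgGal4 replicate 3 the calls with sgHS1-sg2 (limma adjusted p = 0.0714) and sgHS3-sg2 (0.0591) were lost, and without guide replicate 1 or 2 that with sgHS1-sg2 (0.102 and 0.309). With each library centred on its median, the ratio was -1.04 with sgHBB (limma adjusted p = 0.281) and -1.38 with sgHS3-sg2 (0.095), and with an intensity trend the adjusted p with sgHS1-sg2 was 0.0579.

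Other regions listed in all tables had negative ratios as well. The 1661 regions listed in all 17 tables had a median log2 ratio of -3.11 to -0.89 by table. GATA2 lay above this median in 16 of 17 tables, with sg3'HS1 as the exception at -1.99 against -1.71. It lay above the median of all regions of the table in 0 of 17.

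**Figure D2:**
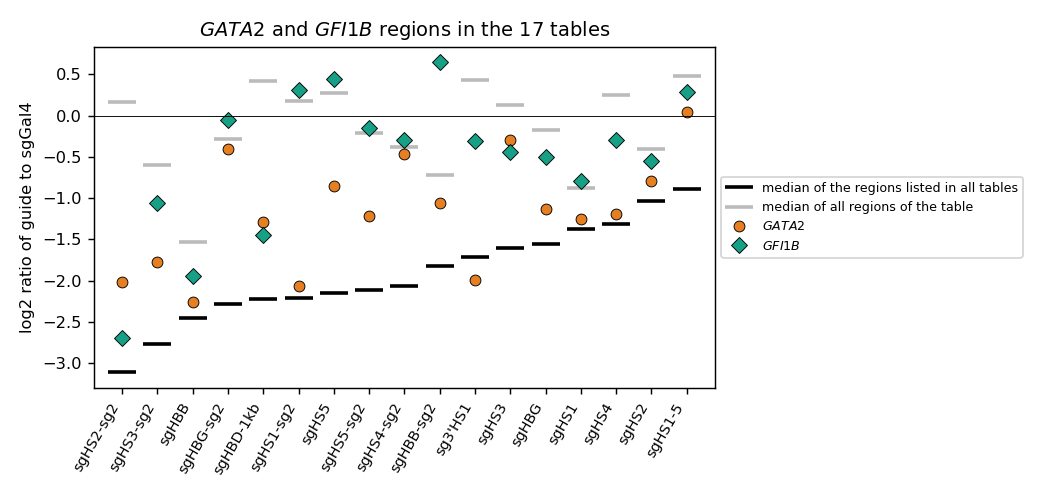
Log2 ratio of guide to sgGal4 libraries at the GATA2 region (circles) and the GFI1B region 785 or 827 bp upstream of its start (diamonds) in each of the 17 tables, ordered by the median of the 1661 regions listed in all tables (black bars); grey bars give the median of all regions of the table. GATA2 lies below every grey bar, and every GFI1B diamond lies above the black bar of its table.

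TAL1 had 4 listed regions in 3 tables, with log2 ratios of 0.42 to 3.51. The promoter region (chromosome 1, 47697894 to 47698193), centred 147 bp upstream of the nearest start and overlapping a start, a UTR and an exon, was raised with sgHBG-sg2. It had 10 and 15 reads in the sgHBG-sg2 libraries and 1, 3, 0 and 0 reads in sgGal4 replicates 1 to 4. Both guide levels lay above every sgGal4 level, as held for 23.6% of all entries listed in 1 table. The ratio was 1.86 (SD 0.51, n = 2; limma adjusted p = 0.0362), rank 66 of 6591 regions, in a table where 0.926% of regions were raised. The call did not hold without sgGal4 replicate 1 (limma adjusted p = 0.0854) or 2 (0.0808), or without either guide library (0.0809 and 0.254), and on recovered reads it held with a pseudocount of 1 (ratio 3.03, adjusted p = 0.0409) and not with 5 (0.1).

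The other high TAL1 ratios rested on 1 library. In the sg3'HS1 table, an exonic region 9654 bp downstream of the start (47685640 to 47685939) had 3 reads in guide replicate 1 and 59 in replicate 2, against 1, 2, 3 and 0 in the sgGal4 libraries. A second exonic region 4052 bp downstream (47691242 to 47691541) had 5 and 98 reads, against 0, 0, 5 and 4. The log2 ratios were 3.51 (SD 3.91, n = 2) and 3.18 (SD 3.94, n = 2), with limma adjusted p of 0.247 and 0.261. In both regions only replicate 2 stood above every sgGal4 library, with 20.1 and 33.3 reads per 10000 listed reads against at most 2.48 and 4.13. The levels of the 2 guide replicates differed by 5.53 and 5.57, and 8 of the table's regions, or 0.0747%, differed by that much in the same direction. Without replicate 2 the ratio at 47685640 was -1.05. At 47691242 the ratio without replicate 2 was not followed. There guide replicate 1 stood at a level of 2.58. This was above sgGal4 replicates 1 and 2 (0.22 and -0.46) and below sgGal4 replicates 3 and 4 (5.0 and 4.93). The fourth region, 9952 bp upstream (47707699 to 47707998), had 7 and 11 reads with sgHBD-1kb and 5, 7, 2 and 2 with sgGal4, at a ratio of 0.42.

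LYL1, the TAL1 relative, had 5 entries at 4 loci in 4 tables, with log2 ratios of 0.98 to 1.80. The region 139 bp upstream of the nearest start (chromosome 19, 13213964 to 13214263), which overlaps a start, a UTR and an exon, was raised with sgHBD-1kb. It had 19 and 9 reads in the sgHBD-1kb libraries and 3, 7, 0 and 0 reads in sgGal4 replicates 1 to 4. Both guide levels lay above every sgGal4 level, as in 23.6% of all entries listed in 1 table. The ratio was 1.80 (SD 0.44, n = 2; limma adjusted p = 0.0253), rank 940 of 9939, in a table where 9.45% of regions were raised. The call did not hold on recovered reads (limma adjusted p = 0.128 with a pseudocount of 1), without sgGal4 replicate 1 (0.0575), or without guide replicate 1 (0.186) or 2 (0.0801).

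A start-overlapping LYL1 locus next to it was listed with 2 other guides, at coordinates 7 bp apart. With sgHS4 it had 53 and 9 reads against 7, 9, 1 and 4 in sgGal4, and with sg3'HS1 it had 38 and 4 against the same 4 sgGal4 values. The log2 ratio was 0.98 in both tables, with limma adjusted p of 0.392 and 0.293, and sgGal4 replicate 4 overlapped the guide levels in both. The remaining LYL1 regions lay 3006 bp (exonic, sgHBD-1kb) and 8950 bp (sgHBG) downstream of the start, with ratios of 1.17 and 1.05 and limma adjusted p of 0.125 and 0.145.

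LMO2, the bridging protein of the complex, had the highest ratio of all 54 entries. Its intronic region 6525 bp downstream of the nearest start (chromosome 11, 33906949 to 33907248) had 71 and 31 reads in the sgHBD-1kb libraries and 0, 3, 0 and 1 reads in sgGal4 replicates 1 to 4. Both guide levels, 6.17 and 5.37, lay above the highest sgGal4 level of 3.16. Such a separation was seen in 23.6% of all entries listed in 1 table. The log2 ratio was 3.69 (SD 0.57, n = 2), and limma gave a difference of 4.04 (SE 0.81, adjusted p = 0.0126). The ratio had rank 26 of 9939 regions, in a table where 9.45% of regions were raised. LMO2 lies on the chromosome of the globin cluster, and this region is 28.7 Mb from the highest region of that table, at HBD, whose ratio was 8.45. Without sgGal4 replicates 3 and 4 together, which had the highest sgGal4 levels here, the ratio was 5.01. The call held without each sgGal4 library in turn (limma adjusted p = 0.017 to 0.0271) and on recovered reads with a pseudocount of 1 (0.0371). It did not hold with only 1 guide library, without guide replicate 1 (0.119) or 2 (0.068). A second LMO2 region, 1572 bp upstream of the start and outside transcripts, was listed with sgHS5 at a ratio of 0.13 (SD 0.37, n = 3; limma adjusted p = 0.692).

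LDB1, the protein that joins such complexes across chromatin, had ratios of 1.09 to 2.11 in 3 tables. Its intronic region 909 bp downstream of the nearest start (chromosome 10, 103873645 to 103873944) was raised with sgHS3. It had 28, 17 and 8 reads in the sgHS3 libraries and 3, 9, 0 and 1 reads in sgGal4 replicates 1 to 4. Every guide level lay above every sgGal4 level, as in 23.6% of all entries listed in 1 table. The ratio was 2.11 (SD 0.62, n = 3; limma adjusted p = 0.0299), rank 432 of 7777, in a table where 6.44% of regions were raised. The pool sgHS1-5, named for the same group of sites, listed the region shifted by 1 bp. There the 6 libraries had 5, 6, 1, 0, 56 and 19 reads, so replicates 5 and 6 were high and the others overlapped sgGal4. The ratio was 1.50 (SD 1.62, n = 6; limma adjusted p = 0.423). The call with sgHS3 did not hold without any 1 of its guide libraries (limma adjusted p = 0.0666 to 0.0943) or without sgGal4 replicate 1 (0.0707) or 2 (0.0566). On recovered reads it held with a pseudocount of 5 (ratio 1.29, limma adjusted p = 0.034) and not with 1 (0.0708).

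The other LDB1 region, 2489 bp downstream of the start in an intron (103872065 to 103872364), was listed with sgHS5. It had 12, 29 and 14 reads there and 0, 2, 1 and 1 reads in sgGal4, with a ratio of 1.09 (SD 0.48, n = 3; limma adjusted p = 0.394). Replicates 3 and 4 of sgGal4, with 1 read each, stood at levels of 3.03 and 3.05, between guide levels of 2.77 and 3.70. Without those replicates, which had the highest sgGal4 levels here, the ratio was 4.17 with a limma adjusted p of 0.00271. In that setting 24.4% of all entries were raised. The reference sequence of this region holds a GATA motif and an E-box 1 bp apart.
LDB1, chr10:103872283-103872312: gtgtggcctaccAGATAAcCAGTTGggcct

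**Figure D3:**
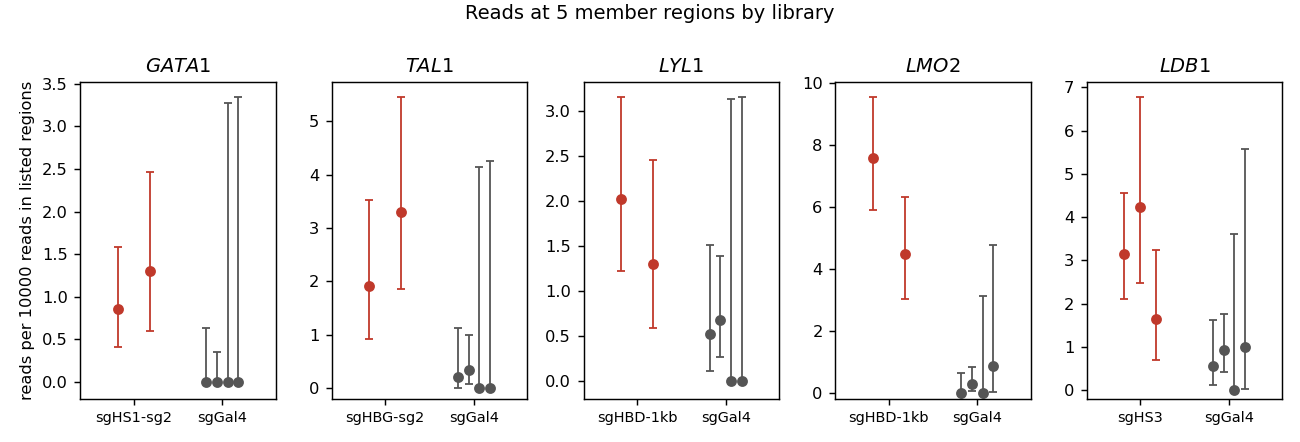
Reads per 10000 reads in listed regions at the GATA1 region and the raised TAL1, LYL1, LMO2 and LDB1 regions, for each guide library (red, left) and each sgGal4 library in replicate order (grey, right), with exact 95% Clopper-Pearson intervals that cover counting error only. LMO2 with sgHBD-1kb stands farthest apart, at 7.56 and 4.46 against at most 0.853 in sgGal4.

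GFI1B, the repressor, had 22 entries at 3 loci, and together they covered all 17 tables. The most listed was an intronic region 827 bp upstream of the nearest start (chromosome 9, 135853062 to 135853361), in 16 tables, with a version shifted by 42 bp in the pool table. It held 0 to 34 reads in 36 guide libraries, with a median of 4.5, and 10, 17, 2 and 0 reads in sgGal4 replicates 1 to 4. The log2 ratio ran from -2.69 with sgHS2-sg2 to 0.65 with sgHBB-sg2, with a median of -0.38. The sgHBB library, with 3 reads, gave the 1 lowered call at -1.94 (limma adjusted p = 0.0414). That call did not hold without sgGal4 replicate 1, 2 or 3 (limma adjusted p = 0.0671 to 0.0868), on recovered reads with a pseudocount of 1 (0.612) or with median centring (-0.71, adjusted p = 0.486). The lowest ratio, from the single sgHS2-sg2 library with 1 read, had a limma adjusted p of 0.0533. With sgHBB-sg2 the region had 26 and 8 reads, the highest rates of its 36 guide libraries at 5.44 and 3.89 per 10000 listed reads, and the limma adjusted p was 0.296.

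A second GFI1B locus, 5778 to 5887 bp upstream and overlapping a UTR exon, was listed at 4 overlapping coordinates with sgHS5, the pool, sgHS5-sg2 and sgHS3. Its log2 ratios were -0.06, 0.87, 0.62 and 0.67, and none was called. The third, 7858 bp downstream and outside transcripts, was in the pool table at a ratio of 0.67.

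GFI1B had more reads than GATA2 in most guide libraries. In 36 guide libraries where both regions were listed at these coordinates, GFI1B had more reads in 28 and GATA2 in 8, with 280 and 127 reads in all. In sgGal4 the sums were 29 reads for GFI1B and 28 for GATA2. Against the regions listed everywhere, GFI1B was above the median ratio in 16 of 16 tables, and above the median of all regions in 7.

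The level relative to sgGal4 depended on the denominator. Per 1000 reads in the 1661 regions listed in all tables, a denominator chosen after the values were seen, GFI1B had 2.25 ± 1.55 reads in guide libraries (SD, n = 36) and 0.56 ± 0.381 in sgGal4 libraries (SD, n = 4). GATA2 had 1.08 ± 0.927 reads in guide libraries (SD, n = 42; 9 of them at 0 reads) and 0.467 ± 0.352 in sgGal4 libraries (SD, n = 4). Those 1661 regions have negative ratios themselves in every table at the median, as given above. Per 10000 reads in all listed regions the guide mean less the sgGal4 mean was -0.00491 reads for GFI1B and -0.48 for GATA2. Guide libraries of different guides are pooled in these means, and no test is given.

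Genes listed in the same tables as GATA2 or GFI1B were many. Of 12375 genes, 1344 had a region in all 17 tables and so matched both fully, with a Jaccard index of 1. Those with the same median sgGal4 reads as GATA2, 28, and first by name were AATF, AHSG and AIF1, and for GFI1B, at 29 reads, C16orf86, C1QTNF1 and CARD8.

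GATA motifs were frequent in the reference sequence of the member regions. AGATAA, on either strand, was present in 11 of 23 member regions (47.8%) and, taking 1 region per locus, in 8 of 17 (47.1%). The share was 13.3% over all 91133 distinct regions and 22.9% over the regions listed in 16 or 17 tables. It was 8.11% in 111 regions at partner genes. CAGNTG, also on either strand, was in 12 of 17 member loci (70.6%), against 54.3% of all regions. Both motifs were in 5 of 17 (29.4%), against 7.44%. Overlapping member regions share sequence, so the 23 are not separate. The median GC content was 58.7% in member regions and 57.7% in all regions, but 40.7% in regions listed in 16 or 17 tables and 66.7% in partner-gene regions. These are matches of letters, not sites of binding.

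Both motifs lay at most 10 bp apart in 3 of 17 member loci (17.6%), against 1.17% of all regions, a limit chosen after the values were seen. The gap was 9 bp at GATA1, 8 bp at GATA2 and 1 bp at LDB1. The TAL1 and GATA1 complex is known to bind a composite arrangement of CTG and GATA. Only 1 spacing was searched, a gap of exactly 8 bases between CTG and GATA. That spacing was present in 1 member region, the TAL1 exon region at 47685640, or 4.35%, against 2.79% of all regions. Regions with another spacing, such as the GATA2 region, were not counted. Of the 4 raised regions, LMO2 and TAL1 held AGATAA without CAGNTG, and LYL1 and LDB1 held CAGNTG without AGATAA.

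**Figure D4:**
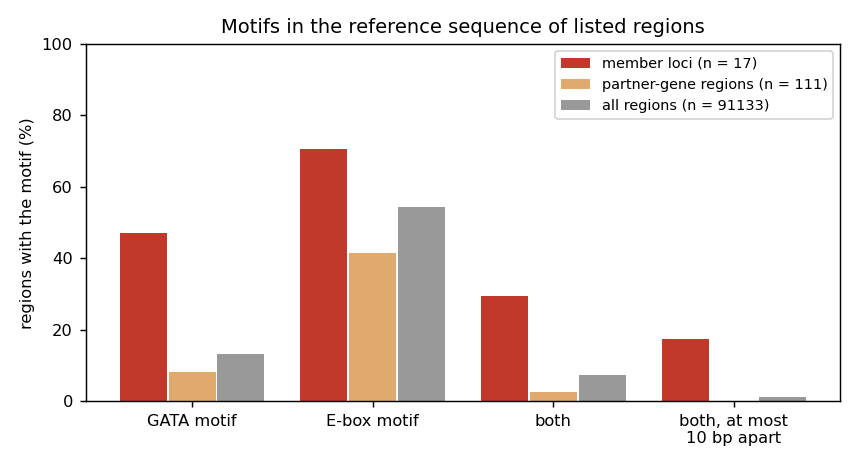
Share of regions whose reference sequence holds the GATA motif AGATAA, the E-box motif CAGNTG, both, or both at most 10 bp apart, for 17 member loci, 111 distinct partner-gene regions and 91133 distinct regions in all. The GATA motif is in 47.1% of member loci against 13.3% of all regions.

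Partners and neighbours of the complex were set beside the members from a list of 26 genes, of which 21 had a region within the same distance. Their 149 entries had a median log2 ratio of 0.45, against 0.08 for all entries, and 43 (28.9%) had a ratio of at least 1, against 17.3%. Of the 149, 2 (1.34%) were raised and 8 (5.37%) lowered, against 1.66% and 11.2% of all entries, and 39 (26.2%) had an unadjusted p below 0.05, against 31.5%. The raised ones were both with sgHBD-1kb, as were the LMO2 and LYL1 calls, in a table where 9.45% of regions were raised. A region at the start of CHD4, a chromatin remodeller, had a ratio of 1.96 (SD 0.01, n = 2; limma adjusted p = 0.0286). A region 4292 bp from the start of SSBP4, of a family of LDB1-binding proteins, had 2.19 (SD 0.45, n = 2; limma adjusted p = 0.018). The lowered ones were ZFPM1, which encodes the GATA1 cofactor FOG1, in 5 tables at -1.61 to -2.74, TCF3, which encodes the E proteins E12 and E47, in 2 at -1.53 and -2.54, and SPI1, which encodes PU.1, in 1 at -2.25. Their regions were listed in 9 or 16 tables. The highest ratio of the list was 3.31 at CBFA2T3, a corepressor gene, with sg3'HS1 (SD 0.1, n = 2; limma adjusted p = 0.0799), not called.

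The distance limit kept 3 entries near its edge and left out others. The farthest members were TAL1 at 9952 bp (ratio 0.42) and 9654 bp (3.51) and LYL1 at 8950 bp (1.05). Just outside were LMO2 entries at 11767 to 11817 bp in 4 tables, with ratios of -0.09 to 0.26, and a TAL1 entry at 11776 bp in the sg3'HS1 table, at 1.01. Within 5 kb in place of 10 kb, 3 member entries were raised and 4 lowered.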

How the data were processed

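CAPTURE-ChIP-seq was measured in K562. Of 61 samples, 46 have columns in the tables used, and 15 were not analysed here. The submitters' processing notes name Bowtie 1.0.0, Picard and the build hg19, and reads with a single genomic location were kept, per the labels' protocols. Which peak caller and scaling were used is not given in these sources. For regions of 300 bp the authors deposited a value per library, rescaled in each of 17 tables and with no stated unit; its range and steps are those of a log2 level.

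Levels of a library are linear in the logarithm of whole numbers, with 100% of values whole within 0.01 (or 0.01% of the value, if larger). Reads were set to that number minus 1, an inference from the values. Log2 ratios were recomputed from mean linear levels and differ from the authors' column by at most 1.39e-08. Sums over listed regions cover only part of each library's depth. Intervals are exact at 95% and, like the floor of 3 reads, cover counting error only.

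Guide and sgGal4 libraries were compared within each table with limma 3.58.1 in R 4.3.3 on the log2 levels, with empirical Bayes variances and Benjamini-Hochberg adjustment over all regions of the table. The fit was tested on simulated data. The labels do not say that replicates came from separate cultures, so p-values reflect library-to-library spread that may be technical. Genes came from protein-coding transcripts of GENCODE 44 on GRCh37, which has hg19 coordinates. Starts are counted from 1.

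The members, the partner list and the motifs were chosen with earlier results of these data known. Named were all members, their entries past the threshold, their highest and lowest entries and most listed locus, partners past the threshold or highest, and genes listed in the same tables. Alternatives covered the scale, filter, variance model, centring, replicate block, distance and left-out libraries. Omitting sgGal4 replicates 3 and 4 together, and the shared-region denominator, were chosen after seeing the data.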

Additional observations from a re-analysis of the deposited data

How the results depend on the processing

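On recovered reads, with a pseudocount of 1 and of 5, 2 and 2 member entries were raised in place of 4, 0 and 0 were lowered in place of 4, 4 and 1 partner entries were raised in place of 2, and 0 and 0 were lowered in place of 8. Of all entries 1.88% and 1.62% were then raised, and 2.46% and 1.58% lowered. The raised members were LMO2 and TAL1 with a pseudocount of 1, and LMO2 and LDB1 with 5. Array weights gave 9 member entries lowered and 19 partner entries raised, with 15.5% and 9.75% of all entries so called. Median centring gave 2 member entries lowered, 14 partner entries raised and 4 lowered, with 4.38% of all entries raised and 11.3% lowered. An intensity trend gave 5 partner entries raised, with 2.84% of all entries raised. A filter on low levels gave 5 partner entries lowered, with 8.95% of all entries kept by the filter lowered. Without sgGal4 replicates 3 and 4 together, 9 member entries were raised and 10 lowered, and 51 partner entries were raised, with 24.4% of all entries raised. Leaving out 1 replicate number at a time, 0.14% to 3.52% of all entries were raised and 1.81% to 11.2% lowered. Member entries raised then ran from 0 to 4 and lowered from 0 to 5. Partner entries raised ran from 0 to 6 and lowered from 1 to 8. The lowest counts, at 0, came without guide replicate 1 (members raised and lowered, partners raised; 14 tables, without sgHBB and sgHS3-sg2, which hold 3 of the 4 lowered member calls), guide replicate 2 (members raised) and sgGal4 replicate 1 or 2 (members lowered). The causes were not tested.

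The replicate block gave 6 member entries raised and 4 lowered, and 26 partner entries raised and 5 lowered, over 14 tables, where 7.92% of all entries were raised and 9.36% lowered. It could not be fitted for sgHBB, sgHS2-sg2 and sgHS3-sg2, which have 1 guide library. Same-numbered libraries correlated at -0.25 to 0.219, and in no table with 3 or more pairs were all over 0.1, so the numbers were not taken to pair libraries.

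Direction across settings was followed in 17 named member entries, and not in the other member entries. Among the 17, it turned round in 3 entries with ratios under 1 and in 1 TAL1 entry with a high ratio. GATA2 with the pool (0.04) was -0.53 and -0.33 on reads, -0.62 with centring, -0.2 without sgGal4 replicates 3 and 4, and -0.15 to 0.25 without 1 library. LMO2 at 33915045 (0.13) was -0.1 and -0.07 on reads and -0.24 to 0.72 without 1 library. TAL1 at 47707699 (0.42) was -0.07 and -0.05 on reads and -0.14 to 0.83 without 1 library, and TAL1 at 47685640 (3.51) was -1.05 to 4.66 without 1 library, lowest without guide replicate 2. The shared-region differences of GATA2 and GFI1B became -0.48 and -0.00491 with all listed reads as the denominator. Counts of 0 to 20 reads per library limit most member entries.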
